A study of Mus musculus with 6 samples.

Results

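The Hox genes are the members of the 4 clusters of homeobox genes on mouse chromosomes 6, 11, 15 and 2. They were taken as all gene names made of Hox, a cluster letter from a to d and a paralogue number, with antisense names left out, which gave 39 of the 46517 genes in the tables. All 39 have the same start and end in the GENCODE vM21 annotation (GRCm38). RNA abundance was measured in E14TG2a, a wild-type mouse embryonic stem cell line, with 2 libraries for each of 3 stages. Undifferentiated stem cells grown without feeders in serum and LIF are called mESC, and the 2 other stages, NPC and NC, were differentiated toward neurons by a published protocol. The study's design text speaks of neuronal progenitors and glutamatergic pyramidal neurons, and NC, which the labels do not spell out, is taken as the latter. All libraries come from 1 cell line, and no day of harvest is given for any stage. Values are TPM, an abundance per transcript length that adds up to a fixed total in every library, and the values of a stage are always given for replicate 1 and then replicate 2.

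Hox proteins are transcription factors that bind DNA through a homeodomain and give cells of the embryo their position along the head-to-tail axis. Within a cluster the genes lie in the order in which they are used: low paralogue numbers, at the 3′ end, act first and reach into the hindbrain, and high numbers, at the 5′ end, act later and toward the tail. In stem cells the clusters carry the Polycomb mark and are mostly silent. Retinoic acid, which the published protocol adds to cell aggregates, is a classical activator of their 3′ ends. The forebrain, from which the cortex arises, forms ahead of the Hox territory.

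The depth of the libraries, read from the most common ratio of coverage to FPKM, lay between 1.57 and 2.27 Gb of aligned bases. All 37 mitochondrial genes were listed at 0 in all libraries, so a 0 is given here only as listed at 0, and no fold is given against a stage with both libraries at 0. On the TPM scale the median log2 fold change over all genes tested was 0.18 for NPC against mESC, 0.11 for NC against NPC and 0.31 for NC against mESC, and after median-of-ratios scaling it was -0.02, 0.04 and 0.04. The stage labels were checked with marker genes. The 5 pluripotency markers summed to 4138 and 4221 TPM in mESC and to at most 13.2 in any other library, and the summed level of the 5 neuron markers went from 90.4 and 123 TPM in mESC to 572 and 864 in NPC and 3063 and 2908 in NC. Of 5 markers of cortical projection neurons only 1 passed the filter used below. In bulk RNA, fewer cells of a type and less RNA per cell cannot be told apart. The labels call the libraries biological replicates but do not say whether they came from separate cultures, so that the p-values measure the spread between these libraries.

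Taken over a whole library, the 39 Hox genes summed to 56.7 and 86.9 TPM (mESC), 3613 and 4252 TPM (NPC), then 2752 and 3185 TPM (NC). Both differentiated stages lay far above the stem cells. The Hoxb cluster held the largest share of this RNA after differentiation, with 59.4% and 59.1% of the summed Hox TPM in NPC and 47.4% and 59.3% in NC, against 5.32% and 5.62% in mESC. The Hoxa cluster held 63.8% and 81.2% (mESC), 20.1% and 19.9% (NPC), then 26.2% and 19.1% (NC). Sorted by paralogue number, genes 4 to 8 carried 66.6% and 62.8% of the Hox RNA in NPC and 70.3% and 66.4% in NC. Genes 9 to 13 carried 57.1% and 63.0% in mESC but only 5.63% and 11.8% (NPC), then 1.20% and 11.8% (NC). The small Hox signal of the mESC libraries thus came mainly from the 5′ genes, and that of the differentiated stages from the middle of the clusters. The mESC libraries also held 6 endoderm markers at a sum of 92.2 and 21.3 TPM. Their 8 markers of fibroblasts and mesoderm summed to 128 and 83.8 TPM. The part of such cells in the mESC Hox signal was not tested.

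**Figure D1:**
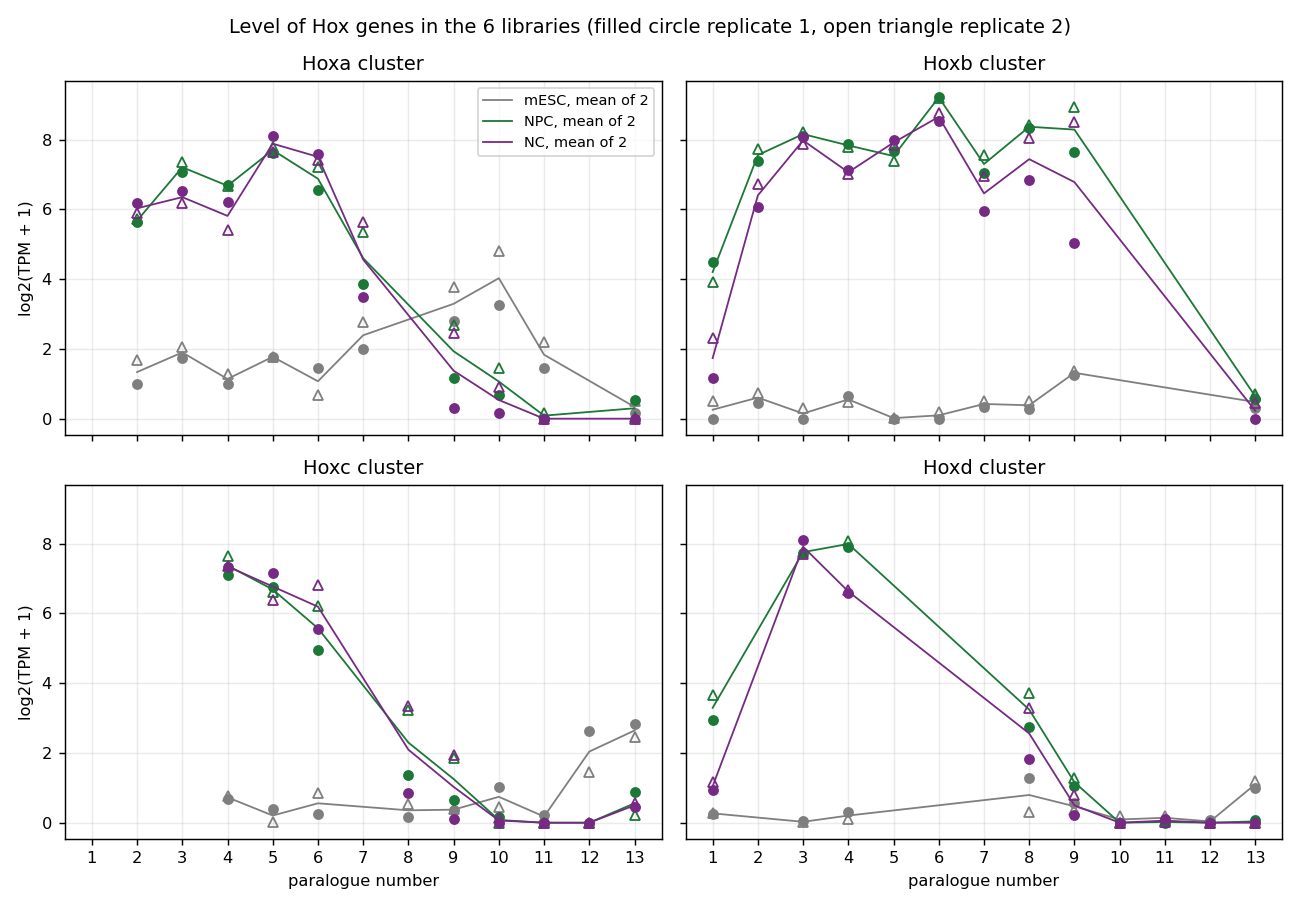
Level of Hox genes as log2(TPM + 1) against paralogue number, with 1 panel for each cluster. Points are single libraries and lines join the stage means of the genes that exist in a cluster. NPC and NC levels drop after Hoxa7, Hoxb9, Hoxc6 and Hoxd4, and the mESC levels of the Hoxa cluster are highest at Hoxa10.

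Neuronal progenitors were compared with stem cells to ask which Hox genes the first step of differentiation turns on. Of the 39 genes, 32 passed the filter of at least 1 TPM in at least 2 libraries. In that comparison 22 Hox genes rose and 5 fell at a limma adjusted p under 0.05, while of all 20232 genes tested 40.0% were called, 26.0% higher and 14.0% lower. Quantile normalization changed these shares of all genes to 19.6% and 18.6%. Over all 39 Hox genes the median difference was 3.59 on the log2(TPM + 1) scale, beside a median of 0.18 over all genes tested. A gene silent in stem cells could pass the filter only through its level later, so the count describes these genes and is no test of them as a set. Of the 23 genes of paralogues 1 to 8, 21 rose. Of the 16 genes of paralogues 9 to 13, 9 passed the filter, 1 rose and 5 fell. Of those that fell, Hoxa11, Hoxc12, Hoxc13 and Hoxd13 reached 1 TPM only in mESC. They passed the filter through that stage alone, so the count of falls is likewise no test of a set.

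Paralogue 1 genes act earliest in the hindbrain. Hoxb1, which sets the identity of the fourth hindbrain segment, stood at 0 and 0.427 TPM (mESC), 21.3 and 14.2 (NPC), then 1.25 and 3.94 (NC) (log2 fold change 3.95 with an SE of 0.443, limma adjusted p = 0.0009 for NPC against mESC). Hoxd1 stood at 0.187 and 0.222 TPM (mESC), 6.67 and 11.5 (NPC), then 0.908 and 1.23 (NC). Its rise in NPC was also past the threshold (log2 fold change 3.03 with an SE of 0.311, limma adjusted p = 0.000634). Both genes were highest in NPC, in both libraries.

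Paralogues 2 and 3 pattern the hindbrain and the pharyngeal arches. Hoxa2, which specifies the second arch, stood at 0.978 and 2.22 TPM (mESC), 48.7 and 51.7 (NPC), then 71.3 and 58.0 (NC). Hoxb2 stood at 0.374 and 0.682 TPM (mESC), 166 and 211 (NPC), then 66.3 and 105 (NC). The stem cell libraries lay under all others for both genes, with log2 fold changes of 4.34 and 6.95 from mESC to NPC (limma adjusted p = 0.000101 and 2.49e-05). Hoxa3, which is needed for the thymus and parathyroid, stood at 2.33 and 3.18 TPM (mESC), 133 and 163 (NPC), then 91.3 and 71.2 (NC). Hoxb3 stood at 0 and 0.227 TPM (mESC), 274 and 295 (NPC), then 270.4 and 233 (NC). Hoxd3 stood at 0.0303 and 0.00586 TPM (mESC), 213 and 218 (NPC), then 276 and 208 (NC). Hoxb3 and Hoxd3 were nearly absent in stem cells and reached over 200 TPM in the 4 differentiated libraries, while Hoxa3 had a low level in stem cells and a lower one than these 2 afterwards. The log2 fold changes of these 3 from mESC to NPC were 5.31, 8.01 and 7.73 (limma adjusted p = 2.74e-05, 6.31e-06 and 6.31e-06).

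Paralogue 4 genes are expressed from the caudal hindbrain backward. Hoxa4 stood at 1.01 and 1.42 TPM (mESC), 102 and 100.2 (NPC), then 73.8 and 41.3 (NC). Hoxb4, which is also known for expanding blood stem cells, stood at 0.557 and 0.382 TPM (mESC), 236 and 219 (NPC), then 138 and 128 (NC). Both rose from mESC to NPC (log2 fold changes 5.54 and 7.28, limma adjusted p = 5.57e-05 and 6.31e-06), and the Hoxb4 libraries of NPC and NC did not overlap. Hoxc4 stood at 0.601 and 0.712 TPM (mESC), 135 and 201 (NPC), then 160.1 and 164 (NC) (log2 fold change 6.65 with an SE of 0.213, limma adjusted p = 1.43e-05 for NPC against mESC). Hoxd4, a well-studied target of retinoic acid in the hindbrain, stood at 0.239 and 0.0725 TPM (mESC), 237 and 271 (NPC), then 95.2 and 101 (NC) (log2 fold change 7.79 with an SE of 0.167, limma adjusted p = 6.31e-06). The 4 genes of this paralogue ranged in NPC from 102 and 100.2 TPM for Hoxa4 to 237 and 271 for Hoxd4.

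Paralogue 5 and 6 genes mark the cervical and brachial spinal cord, with Hoxa5 and Hoxc5 needed for the motor neurons that drive the diaphragm. Hoxa5 stood at 2.43 and 2.40 TPM (mESC), 194 and 221 (NPC), then 276 and 200.5 (NC). Hoxb5 stood at 0 and 0.0233 TPM (mESC), 204 and 166 (NPC), then 253 and 229 (NC). Hoxc5 stood at 0.302 and 0.0223 TPM (mESC), 108 and 96.5 (NPC), then 143 and 82.0 (NC). Of their NC values only that of Hoxc5 in replicate 2 lay under the lower NPC value, and from mESC to NPC the 3 genes rose by log2 fold changes of 5.93, 7.51 and 6.48 (limma adjusted p = 1.43e-05, 6.31e-06 and 3.62e-05). Hoxa6 stood at 1.75 and 0.609 TPM (mESC), 92.3 and 147 (NPC), then 192 and 171 (NC). Hoxb6, at chr11:96292476-96301569, stood at 0 and 0.142 TPM (mESC), 595 and 589 (NPC), then 371 and 434 (NC). Hoxc6, which belongs to the forelimb level of the motor columns, stood at 0.196 and 0.808 TPM (mESC), 29.7 and 72.8 (NPC), then 46.4 and 112 (NC). Hoxb6 had the highest NPC level of any Hox gene and was among the most reproducible, while the Hoxc6 values of a stage differed more than 2-fold between its libraries. The rises from mESC were 5.81, 9.12 and 5.02 on the log2 scale (limma adjusted p = 6.79e-05, 5.92e-06 and 0.000794).

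**Figure D2:**
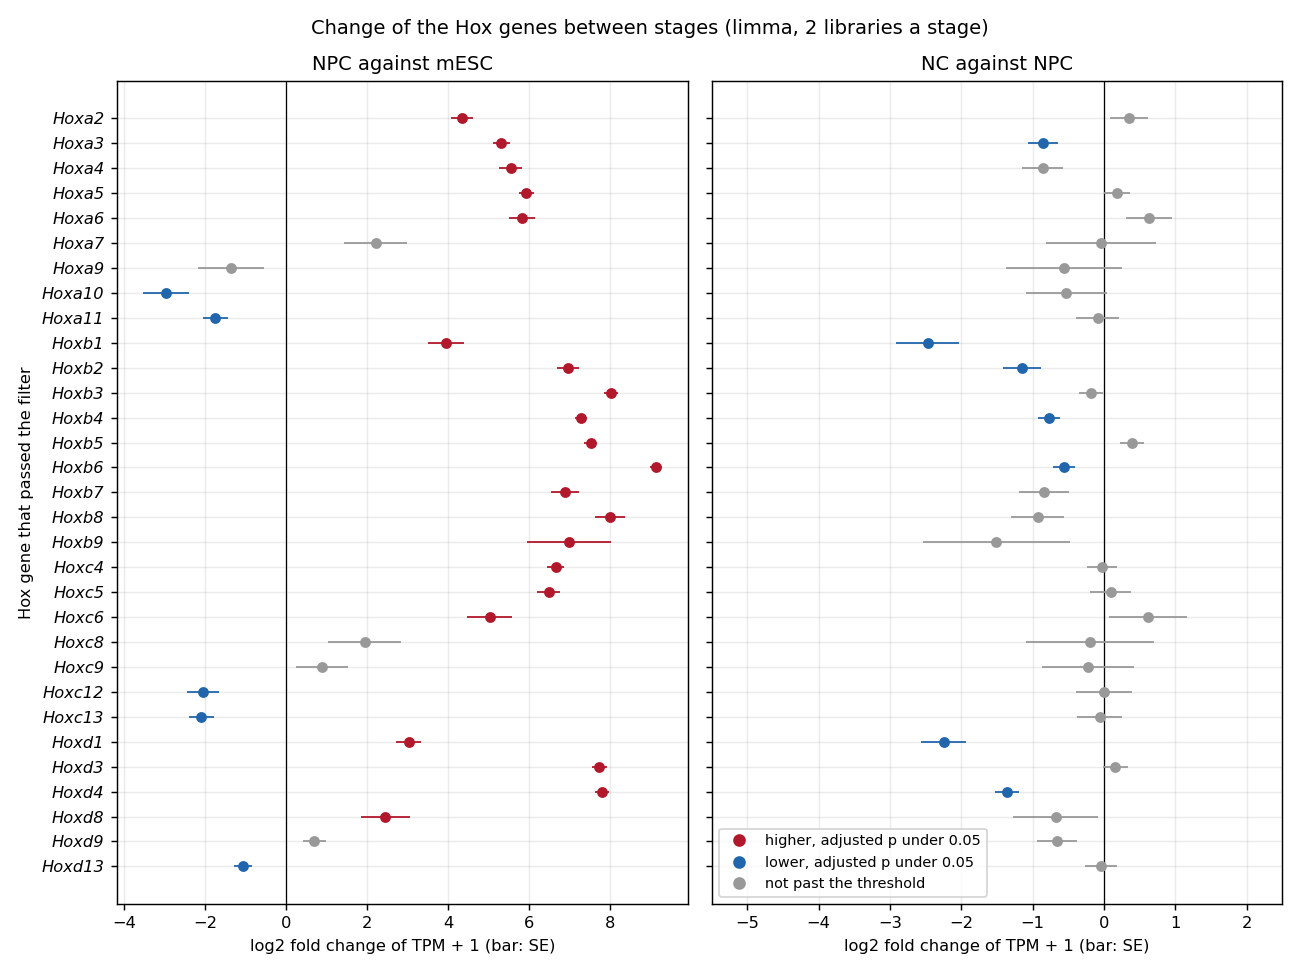
Log2 fold change of TPM + 1 with its SE for Hox genes that passed the filter, NPC against mESC on the left and NC against NPC on the right, on axes of different range. In the left panel most genes of paralogues 1 to 8 are higher and 5 genes of higher number are lower at a limma adjusted p under 0.05, and in the right panel those called are lower and 0 are higher.

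Paralogues 7 and 8 act at brachial and thoracic levels, and here the clusters parted. Hoxb7 stood at 0.262 and 0.421 TPM (mESC), 131 and 187 (NPC), then 60.7 and 124 (NC). Hoxb8 stood at 0.204 and 0.415 TPM (mESC), 321 and 339 (NPC), then 113 and 263 (NC). Both rose in NPC by log2 fold changes of 6.88 and 7.99 (limma adjusted p = 5.53e-05 and 3.89e-05). Hoxa7 stood at 3.02 and 5.84 TPM (mESC), 13.4 and 39.9 (NPC), then 10.3 and 48.3 (NC) and did not pass for NPC against mESC (log2 fold change 2.21 with an SE of 0.772, limma adjusted p = 0.0613), although it did with only these 2 stages in the fit (0.0425). Hoxc8, which sets the identity of forelimb motor pools, stood at 0.124 and 0.457 TPM (mESC), 1.58 and 8.36 (NPC), then 0.807 and 9.09 (NC) (log2 fold change 1.94 with an SE of 0.894, limma adjusted p = 0.131). Hoxd8 stood at 1.43 and 0.239 TPM (mESC), 5.75 and 12.3 (NPC), then 2.55 and 8.77 (NC) (log2 fold change 2.45 with an SE of 0.601, limma adjusted p = 0.0186). The Hoxd8 call was lost without mESC replicate 1, mESC replicate 2 or NPC replicate 2 (limma adjusted p = 0.065, 0.157 and 0.128) and with no filter (0.088). The NPC levels of the 2 Hoxb genes were several times those of Hoxa7, Hoxc8 and Hoxd8 in each library.

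The paralogue 9 genes lay at the border of expression. Hoxb9, at chr11:96271457-96276595, stood at 1.39 and 1.59 TPM (mESC), 198 and 490.3 (NPC), then 32.0 and 366 (NC) and was the only gene past paralogue 8 that rose (log2 fold change 6.97 with an SE of 1.03, limma adjusted p = 0.00268). Hoxa9 stood at 5.99 and 12.7 TPM (mESC), 1.25 and 5.47 (NPC), then 0.235 and 4.46 (NC) (log2 fold change -1.36 with an SE of 0.809, limma adjusted p = 0.228). Hoxc9, which suppresses the limb-level program in thoracic motor neurons, stood at 0.288 and 0.303 TPM (mESC), 0.572 and 2.61 (NPC), then 0.0840 and 2.84 (NC) (log2 fold change 0.88 with an SE of 0.644, limma adjusted p = 0.322). Hoxd9 stood at 0.486 and 0.291 TPM (mESC), 1.07 and 1.42 (NPC), then 0.159 and 0.719 (NC) (log2 fold change 0.69 with an SE of 0.284, limma adjusted p = 0.0984). So the paralogue 9 gene of the Hoxb cluster was abundant, those of Hoxc and Hoxd stayed under 3 TPM in each library, and the level of Hoxa9 was highest in the stem cells. With 10 TPM in both NPC libraries as the mark, expression ended at Hoxa7, Hoxb9, Hoxc6 and Hoxd4, and with the same mark in NC at the same 4 genes. With 1 TPM in both libraries it ended in NPC at Hoxa9, Hoxb9, Hoxc8 and Hoxd9, and in NC at Hoxa7, Hoxb9, Hoxc6 and Hoxd8.

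Beyond this border, several 5′ genes were higher in the stem cells. Hoxa10, which acts at lumbar levels and in the uterus, lies at chr6:52231197-52240854 and stood at 8.52 and 26.9 TPM (mESC), 0.614 and 1.71 (NPC), then 0.121 and 0.876 (NC) (log2 fold change -2.96 with an SE of 0.569, limma adjusted p = 0.00736 for NPC against mESC). Hoxa11, a gene of the forearm and kidney, stood at 1.75 and 3.62 TPM (mESC), 0 and 0.128 (NPC), then 0 and 0 (NC) (log2 fold change -1.75 with an SE of 0.306, limma adjusted p = 0.00515). Hoxc12 stood at 5.16 and 1.74 TPM in mESC and was listed at 0 in the other 4 libraries. Hoxc13, which is needed in hair follicles, stood at 6.14 and 4.47 TPM (mESC), 0.850 and 0.170 (NPC), then 0.357 and 0.470 (NC) (log2 fold change -2.09 with an SE of 0.314, limma adjusted p = 0.00283). Hoxd13, a gene of the digits, stood at 1.01 and 1.30 TPM (mESC), 0.0553 and 0 (NPC), then 0 and 0 (NC) and was the weakest of the 5 that fell (log2 fold change -1.06 with an SE of 0.223, limma adjusted p = 0.0103). The mESC libraries lay above all others for each of these 5 genes, while the size of the stem cell signal differed between its replicates, over 2-fold in TPM for Hoxa10, Hoxa11 and Hoxc12. Leaving out NPC replicate 2 kept 3 of the 5 calls, without Hoxc12 (limma adjusted p = 0.0513) and Hoxd13 (0.0597), and without NPC replicate 1 Hoxa10 was lost (0.0594). The 7 genes that did not pass the filter were Hoxa13, Hoxb13, Hoxc10, Hoxc11, Hoxd10, Hoxd11 and Hoxd12. Just outside the filter, Hoxc10 stood at 1.03 and 0.376 TPM (mESC), 0.116 and 0 (NPC), then 0 and 0.0930 (NC), and just inside it, Hoxd13 and Hoxd9 had 2 libraries above 1 TPM. None of the 7 exceeded 1.03 TPM in any library.

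The Hoxa cluster crosses this border within a short run of genes, and the DNA upstream of an annotated start of 4 of them is shown for that reason. RefSeq promoter windows of 300 bases on GRCm38.p6, reaching from 250 bases before to 50 after an annotated start, were at hand for 22 of the 39 genes in 24 windows. The 250 upstream bases are printed 5′ to 3′ on the gene's strand, which is the minus strand, with each CG dinucleotide, the site of DNA methylation, in capitals. The windows are chr6:52204588-52204837 for Hoxa5, chr6:52218574-52218823 for Hoxa7, chr6:52227371-52227620 for Hoxa9 and chr6:52240855-52241104 for Hoxa10, the last at the more distal of 2 annotated starts. The windows of Hoxa5 and Hoxa10 adjoin the 5′ end of the quantified gene. Those of Hoxa7 and Hoxa9 lie inside it, as these genes reach to positions 52221854 and 52231089. The 4 stretches are therefore not alike in position.
Hoxa5: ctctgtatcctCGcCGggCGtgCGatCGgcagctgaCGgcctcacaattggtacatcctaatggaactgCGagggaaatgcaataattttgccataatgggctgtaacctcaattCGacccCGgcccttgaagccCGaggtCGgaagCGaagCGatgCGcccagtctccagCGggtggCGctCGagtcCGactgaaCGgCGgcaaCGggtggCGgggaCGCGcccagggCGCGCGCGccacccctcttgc
Hoxa7: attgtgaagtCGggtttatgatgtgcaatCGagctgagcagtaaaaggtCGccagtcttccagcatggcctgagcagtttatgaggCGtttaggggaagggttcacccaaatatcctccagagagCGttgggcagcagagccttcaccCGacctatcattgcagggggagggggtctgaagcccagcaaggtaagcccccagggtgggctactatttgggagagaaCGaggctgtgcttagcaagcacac
Hoxa9: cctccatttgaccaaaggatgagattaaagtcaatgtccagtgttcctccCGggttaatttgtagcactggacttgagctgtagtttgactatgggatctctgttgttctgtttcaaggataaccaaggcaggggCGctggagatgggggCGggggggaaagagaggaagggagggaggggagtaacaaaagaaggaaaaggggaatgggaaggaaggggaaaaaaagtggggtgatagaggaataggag
Hoxa10: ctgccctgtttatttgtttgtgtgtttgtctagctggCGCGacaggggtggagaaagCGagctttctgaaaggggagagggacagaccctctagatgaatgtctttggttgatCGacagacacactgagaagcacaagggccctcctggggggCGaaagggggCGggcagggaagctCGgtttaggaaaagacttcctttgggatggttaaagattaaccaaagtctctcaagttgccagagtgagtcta
The Hoxa5 stretch held 28 CG dinucleotides, that of Hoxa7 7, that of Hoxa9 3 and that of Hoxa10 7. The 250 bases before the other annotated Hoxa10 start held 20. Hoxa5 was high in NPC and NC, Hoxa7 intermediate, and Hoxa9 and Hoxa10 were low there. Elsewhere, the window of Hoxd4, one of the most abundant genes in NPC, held 4 CG dinucleotides in 300 bases. It begins at position 74721728 and lies inside the quantified gene, which begins at 74711929. The window of Hoxa13, which did not pass the filter, held 45. Over the 24 Hox windows the median was 14.5, and over all 32851 windows it was 7. Methylation was not measured in these libraries.

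Short motifs were searched on both strands of the same windows. The retinoic acid receptor motifs, AGGTCA repeated in the same direction with a gap of 5 or of 2 bases, had no exact match in any Hox window, and each matched 0.00913% of all windows. The Hox and Pbx motif TGATTNAT was found in 2 of 24 windows, those of Hoxa2 and Hoxd11, and in 3.22% of all windows. The caudal motif TTTATG was found in 5 of 24, those of Hoxa7, Hoxb8, Hoxd3, Hoxd4 and Hoxd11, and in 11.9% of all windows. The letters TATAAA were found in 4 of 24, those of Hoxa10, Hoxb8, Hoxd4 and Hoxd13, and in 13.6% of all. Of the 4 stretches printed above, only that of Hoxa7 held the caudal letters. Such matches describe letters only.

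The step from NPC to NC was compared to ask which Hox genes change between these 2 stages. No Hox gene rose and 8 fell at a limma adjusted p under 0.05, while 25.3% of all genes tested were called, 15.2% higher and 10.1% lower (12.6% and 13.8% with quantile normalization). At an unadjusted p under 0.05 limma gave 0 higher and 10 lower. By stage mean alone, 27 of the 39 genes were lower and 8 higher in NC, where 56.6% of all genes tested were higher. The 39 include the 7 genes that did not pass the filter, so part of this count rests on values near 0. The median difference over the 39 was -0.20 on the log2(TPM + 1) scale, beside 0.11 over all genes tested. Those that fell included Hoxb1, Hoxd1, Hoxb2, Hoxa3, Hoxb4, Hoxd4 and Hoxb6. The change was larger for Hoxb1 (log2 fold change -2.47 with an SE of 0.443, limma adjusted p = 0.0113) and Hoxd1 (log2 fold change -2.25 with an SE of 0.311, limma adjusted p = 0.00569) than for the other 5 of these. Their NC and NPC libraries, given above, did not overlap. Hoxd4 (log2 fold change -1.36 with an SE of 0.167, limma adjusted p = 0.00426), Hoxb2 (-1.15), Hoxa3 (-0.86), Hoxb4 (-0.77) and Hoxb6 (-0.56) followed, the last 4 with limma adjusted p = 0.0238, 0.0289, 0.0154 and 0.038.

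Other genes of the middle of the clusters did not pass in this step. Hoxd3 had a log2 fold change of 0.16 (limma adjusted p = 0.564), Hoxa5 of 0.18 (0.516), Hoxb5 of 0.39 (0.138) and Hoxa6 of 0.63 (0.195). Others had lower values in NC, with Hoxa4 at -0.86 (0.0697), Hoxb7 at -0.84 (0.129), Hoxb8 at -0.93 (0.112) and Hoxb3 at -0.18 (0.48). Hoxa4 was called lower with FPKM in place of TPM (limma adjusted p = 0.0414) and without NC replicate 1 (0.029). The direction of Hoxd3 turned with FPKM in place of TPM and without NC replicate 1, and that of Hoxa5 without NC replicate 1. The 3 genes of the Hoxc cluster above 10 TPM, Hoxc4, Hoxc5 and Hoxc6, had values of -0.03, 0.09 and 0.62, none past the threshold. Hoxd3 and Hoxd4 are neighbours that share exon sequence. The NC libraries of Hoxd4 lay under its NPC libraries and those of Hoxd3 on either side of them, and the difference between the 2 genes was not tested. Without NPC replicate 1, and likewise without NPC replicate 2, the calls shrank from 8 to 2, with Hoxd1 among them, and the share of all genes called lower went from 10.1% to 0.494% and 2.01%. The Hoxb6 and Hoxa3 calls were each lost without any 1 library of the 2 stages. That of Hoxb6 was also lost with a pseudocount of 0.1 or 0.5, quantile normalization, no trend or only the 2 stages in the fit (limma adjusted p = 0.347, 0.0619, 0.203, 0.0753 and 0.0527). With no filter Hoxb6, Hoxa3, Hoxb2 and Hoxb1 were lost (limma adjusted p = 0.0628, 0.0788, 0.0829 and 0.0602). Hoxb2 and Hoxb1 were also lost with a pseudocount of 0.1 (0.0543 and 0.0667), and Hoxb2 with only the 2 stages in the fit (0.0602). Without NC replicate 2, 5 of the 8 were still called, and Hoxb7, Hoxb8 and Hoxb9 were called lower as well (limma adjusted p = 0.0457, 0.0188 and 0.0329).

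Markers of fibroblasts and mesoderm, tissues that also use Hox genes, moved in the same step. Of 8 such markers 6 rose and 1 fell from NPC to NC, where 15.2% of all genes tested rose and 10.1% fell. The summed level of the 8 went from 64.7 and 108 TPM to 873 and 1068 TPM. None of the 8 was listed at 0 in all libraries. Neuron markers rose for 4 of 5. The 6 endoderm markers summed to 184 and 124 TPM in NPC and to 28.5 and 53.1 in NC, and the 4 markers of blood and endothelium to at most 6.95 TPM in NPC and NC. The part of these cells in the Hox values was not tested.

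Against the stem cells, NC had 21 Hox genes higher and 5 lower, where 59.9% of all genes tested were called, 37.8% higher and 22.1% lower (27.5% and 30.8% with quantile normalization). This comparison shares its libraries with the other 2. Hoxd1 did not pass here (log2 fold change 0.78 with an SE of 0.311, limma adjusted p = 0.0685), although it did with a pseudocount of 0.1 or 0.5 (0.0127 and 0.0331). Hoxb1 was higher in NC than in mESC (log2 fold change 1.48 with an SE of 0.443, limma adjusted p = 0.026), but the call was lost without mESC replicate 1, mESC replicate 2 or NC replicate 2 (limma adjusted p = 0.165, 0.0852 and 0.114), with quantile normalization (0.101) and with FPKM (0.0604). Hoxb9 was called higher as well (log2 fold change 5.47 with an SE of 1.03, limma adjusted p = 0.00428). Its call was lost without mESC replicate 1 or mESC replicate 2 (log2 fold changes 5.41 and 5.52), and its NC libraries differed by a ratio of 11.4. The 5 that were lower were Hoxa10, Hoxa11, Hoxc12, Hoxc13 and Hoxd13, the genes that had fallen by NPC. With median-of-ratios scaling, quantile normalization or FPKM, 6 were lower, with Hoxa9 as the sixth (limma adjusted p = 0.0495, 0.0338 and 0.0486). In those settings 19, 18 and 18 were higher. Of all genes tested, 28.4%, 30.8% and 27.6% were called lower there and 30.9%, 27.5% and 31.1% higher. Hoxa7 (log2 fold change 2.17 with an SE of 0.772, limma adjusted p = 0.0471) and Hoxd8 (log2 fold change 1.76 with an SE of 0.601, limma adjusted p = 0.0408) were called, but neither without mESC replicate 1 (limma adjusted p = 0.26 and 0.0859), mESC replicate 2 (0.146 and 0.258) or NC replicate 2 (0.259 and 0.219), nor with median-of-ratios scaling (0.067 and 0.0504).

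The 2 libraries of a stage differed mainly at the 5′ side of the expressed genes. In NC, Hoxb9 stood at 32.0 and 366 TPM in replicates 1 and 2, a ratio of 11.4, Hoxa7 at 10.3 and 48.3, a ratio of 4.69, Hoxb8 at 113 and 263, a ratio of 2.33, and Hoxb7 at 60.7 and 124, a ratio of 2.05. In NPC, Hoxb9 differed by a ratio of 2.48, Hoxa7 by 2.97, Hoxc8 by 5.28 and Hoxc6 by 2.45, each higher in replicate 2. By contrast Hoxb3, Hoxb4, Hoxb5, Hoxb6 and Hoxd4 differed by ratios between 0.813 and 1.17 in both stages. Of the 32 genes that passed the filter, replicate 2 was more than 2-fold higher for 10 in NC and for 6 in NPC, and replicate 1 for 0 in either, on the log2(TPM + 1) scale. Over all tested genes 4.23% were as much higher and 4.37% as much lower in NC replicate 2, and 2.05% and 1.31% in NPC replicate 2. Of the 10 in NC all but Hoxb1 had paralogue numbers from 6 to 9, as had all 6 in NPC (Hoxa7, Hoxa9, Hoxb9, Hoxc6, Hoxc8 and Hoxc9). In mESC this count was 1, Hoxa10, with 1 gene, Hoxc12, lower, against 1.21% and 4.38% of all genes.

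**Figure D3:**
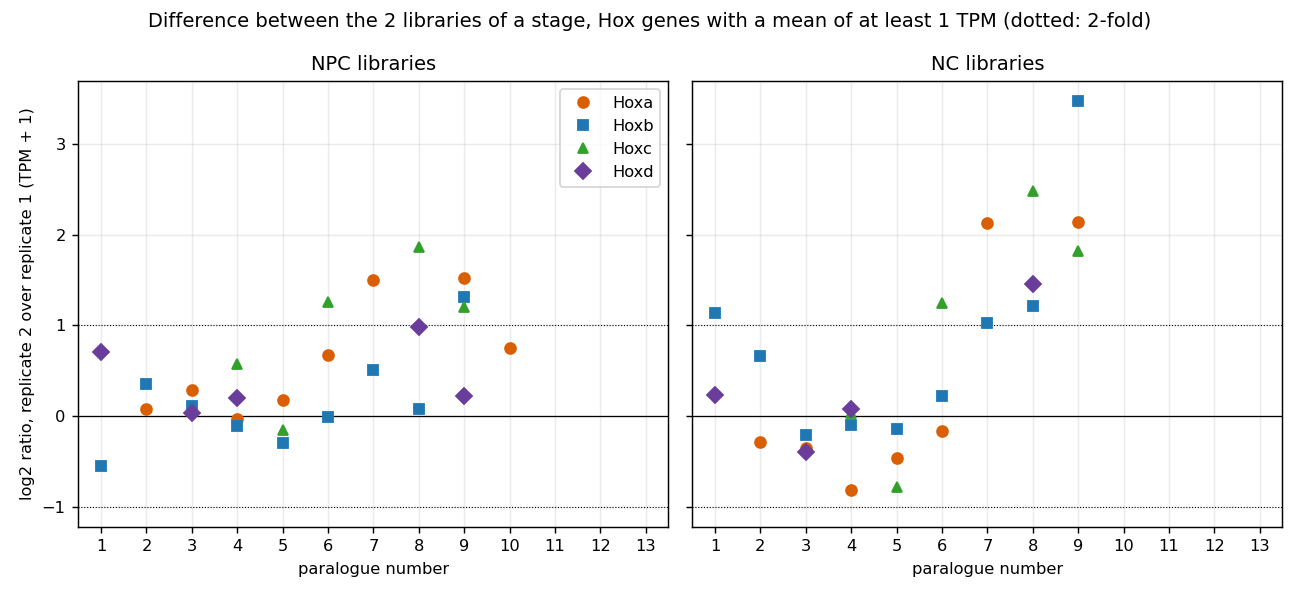
Log2 ratio of replicate 2 over replicate 1 (TPM + 1) against paralogue number for Hox genes with a mean of at least 1 TPM in the stage, NPC on the left and NC on the right. Dotted lines mark 2-fold. Points of paralogues 1 to 5 scatter around 0, and those of paralogues 6 to 9 lie mostly above it, up to the ratio of 11.4 for Hoxb9 in NC.

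Across the 21 Hox genes with a mean of at least 10 TPM in NPC, the log2 ratio of the replicates and the paralogue number had a Pearson correlation of 0.62 and a Spearman correlation of 0.47, and across the 19 such genes in NC 0.72 and 0.58. These are descriptions across genes of the same 2 libraries, and neighbouring genes are not independent. The labels do not say that NPC replicate 2 and NC replicate 2 share a culture. The NC libraries also differed in other markers. The 5 neural progenitor markers summed to 1099 and 341 TPM, the 5 cortical projection neuron markers to 38.8 and 4.02, the 6 glia markers to 115 and 56.5 and the 8 fibroblast and mesoderm markers to 873 and 1068, while the 5 neuron markers summed to 3063 and 2908. The part of these in the Hox difference was not tested.

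By position 47 other genes overlap the 4 clusters, and 26 of them passed the filter, some only through the stage in which they were high. From mESC to NPC 19 of the 26 rose and 3 fell, where 26.0% of all genes tested rose and 14.0% fell. From NPC to NC 0 rose and 9 fell by limma (0 and 15 at an unadjusted p under 0.05), against 15.2% and 10.1% of all genes. The 3 that fell from mESC to NPC were Hoxa11os, Gm53 and Mir196a-1, of which the latter pair lie beside Hoxb9, which rose in that step. Hotairm1, a long non-coding RNA at the 3′ end of the Hoxa cluster, stood at 10.2 and 9.73 TPM (mESC), 447 and 463 (NPC), then 68.0 and 58.6 (NC) (log2 fold change 5.38 with an SE of 0.139, limma adjusted p = 8.21e-06 for NPC against mESC, and log2 fold change -2.83 for NC against NPC). It was highest in NPC in both libraries. Haglr, which lies between Hoxd1 and Hoxd3, stood at 0.0341 and 0.168 TPM (mESC), 60.6 and 64.3 (NPC), then 64.4 and 52.6 (NC) and, like Hoxd3, did not pass from NPC to NC. Hoxaas2 stood at 0.316 and 1.56 TPM (mESC), 131 and 136 (NPC), then 148 and 97.0 (NC), and Hoxaas3 at 1.53 and 1.98 TPM (mESC), 117 and 154 (NPC), then 30.4 and 42.2 (NC), so that the first did not pass from NPC to NC while the second fell (log2 fold changes -0.15 and -1.87, limma adjusted p = 0.786 and 0.00469).

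Some of these RNAs also differed between the replicates of a stage. Hoxb5os stood at 192 and 304 TPM in NPC and 15.8 and 101 in NC, and Hoxd3os1 at 27.7 and 41.3 and 1.28 and 21.3, each higher in replicate 2. Hoxb5 itself, at 253 and 229 in NC, was not. At the 5′ side, Hoxa11os stood at 3.05 and 7.27 TPM (mESC), 0.174 and 0 (NPC), then 0 and 0 (NC), and Gm53, a long non-coding RNA beyond Hoxb9, at 17.3 and 15.5 TPM (mESC), 1.46 and 1.47 (NPC), then 1.91 and 7.49 (NC). Both fell from mESC to NPC (log2 fold change -2.42 with an SE of 0.369, limma adjusted p = 0.00298 and log2 fold change -2.82 with an SE of 0.484, limma adjusted p = 0.00476), so the stem cell signal of the 5′ side included non-coding genes. Gm11539, a processed pseudogene in the gap between Hoxb9 and Hoxb13, stood at 246 and 269.8 TPM (mESC), 236 and 257 (NPC), then 135 and 107 (NC) and did not pass from mESC to NPC.

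**Figure D4:**
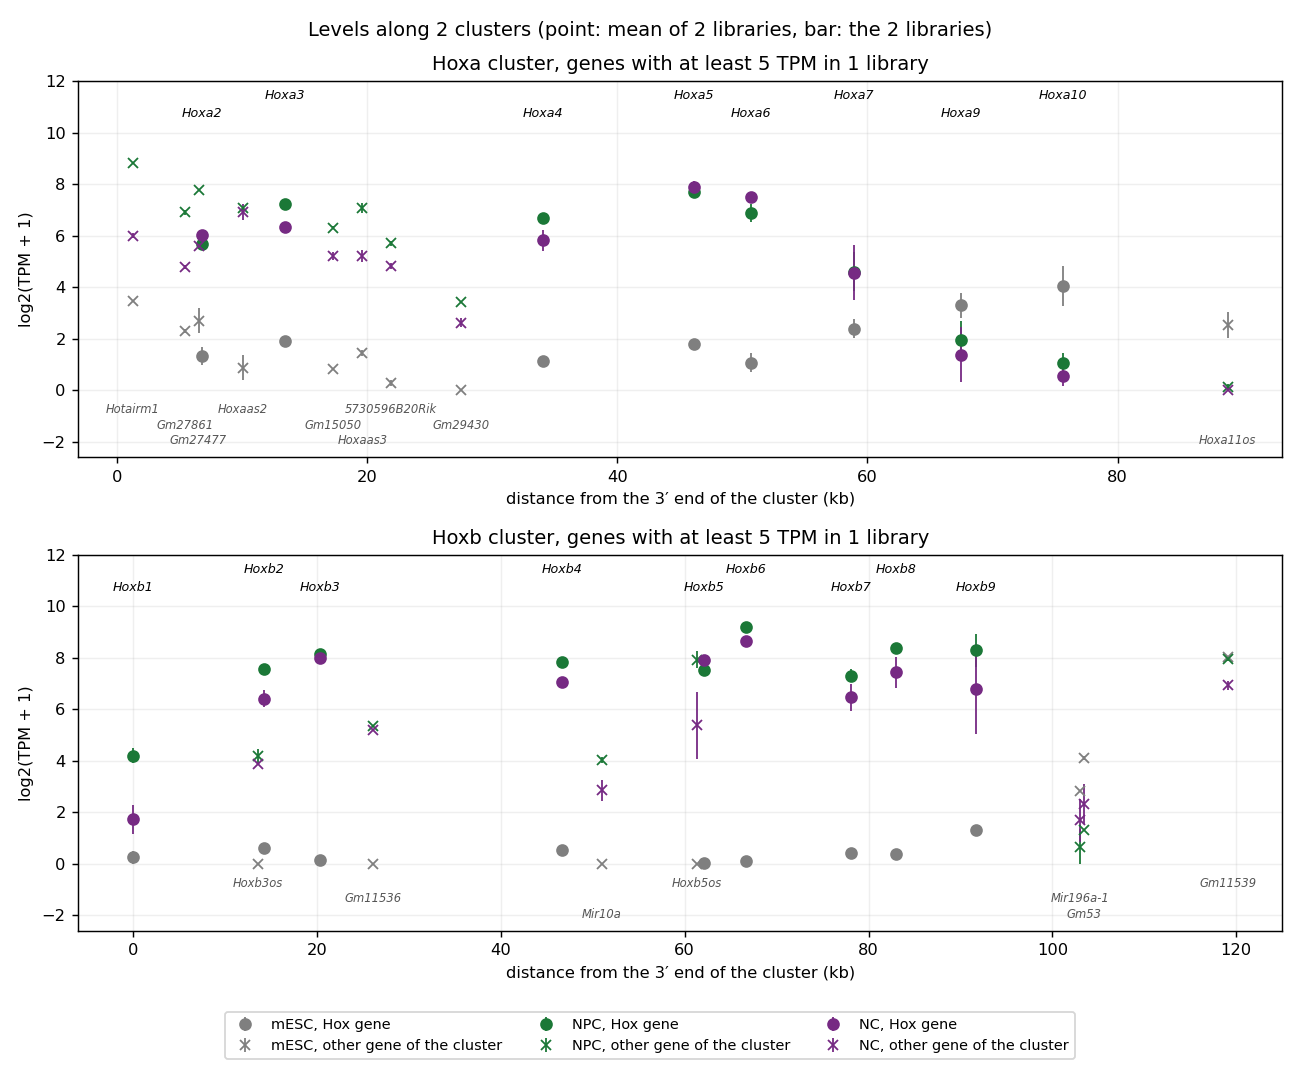
Levels along the Hoxa and Hoxb clusters as log2(TPM + 1), placed by the distance in kb of each gene's end on the 3′ side of the cluster from the 3′ end of the cluster. Circles are Hox genes, crosses are other genes of the cluster, and bars span the 2 libraries. In the Hoxa cluster the NPC and NC points pass under the mESC points between Hoxa7 and Hoxa9, and in the Hoxb cluster they stay above them up to Hoxb9.

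Several values share sequence with a neighbour. Exons of 10 Hox genes overlap exons of a gene of at least 1 TPM on the other strand, and it is not given whether the quantification used strand. The largest such overlap was 52.9% of the exon bases of Hoxb3 (with Hoxb3os), followed by 35.0% for Hoxa11 (with Hoxa11os), 27.3% for Hoxb2 (with Hoxb3os) and 25.4% for Hoxa3. On the same strand 6 Hox genes share exon bases, led by Hoxd3 with 62.3% and Hoxd4 with 52.3%, shared with each other and with Gm28230, a gene model that overlaps both and stood at 0 and 0.207 TPM (mESC), 113 and 136 (NPC), then 35.3 and 58.5 (NC). How the quantification split reads among these 3 is not known, so their levels are uncertain. Hoxb4, Hoxb6, Hoxb7, Hoxb8, Hoxb9, Hoxa5, Hoxa6, Hoxc4 and Hoxc6 share none.

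The clusters also encode microRNAs, which are shown because they are transcribed with the Hox genes and miR-196 is known to repress Hoxb8. The mature 5p forms from RefSeq (GRCm38.p6) are given 5′ to 3′ with the seed, bases 2 to 8, in capitals.
miR-10a-5p: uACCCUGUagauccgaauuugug
miR-10b-5p: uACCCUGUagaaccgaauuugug
miR-196a-5p: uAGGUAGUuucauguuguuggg
miR-196b-5p: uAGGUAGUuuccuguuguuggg
The 2 miR-10 forms share 1 seed and differ by U12A, and the 2 miR-196 forms share another and differ by A12C, with positions counted from the 5′ end and the first-named form first. The libraries measured poly(A) RNA, so a value on a microRNA gene is not that of the mature form. Mir10a, upstream of Hoxb4, was listed at 0 for mESC, at 16.9 and 14.1 TPM for NPC and at 4.47 and 8.59 for NC. Mir196a-1, upstream of Hoxb9, stood at 6.11 and 6.04 TPM (mESC), 0 and 1.54 (NPC), then 0.822 and 4.71 (NC) (log2 fold change -2.15 with an SE of 0.632, limma adjusted p = 0.0352 for NPC against mESC). Like Hoxb4, Mir10a was called higher in NPC than in mESC and lower in NC than in NPC, while Mir196a-1 was highest in the stem cells, as was Gm53 beside it. Mir10b stood at 0.749 and 0 TPM (mESC), 2.21 and 2.34 (NPC), then 0.303 and 1.40 (NC), and Mir196b and Mir196a-2 stayed under 0.1 TPM in each library.

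Hox proteins bind DNA together with the TALE homeodomain proteins of the Meis, Pbx and Pknox families. Of 9 genes for such cofactors, 8 rose from mESC to NPC (7, without Pknox1, with median-of-ratios scaling, quantile normalization or FPKM), and all 9 were higher in NC than in mESC (8 with quantile normalization). Over all genes tested 26.0% rose in the first comparison and 37.8% in the second. Meis1 stood at 3.26 and 3.04 TPM (mESC), 95.8 and 107 (NPC), then 137 and 143 (NC) (log2 fold change 4.62 with an SE of 0.146, limma adjusted p = 1.43e-05 for NPC against mESC). Meis2 (4.25), Pknox2 (3.74), Meis3 (3.45) and Pbx3 (2.84) rose as well, and Pbx4 did not pass (0.67, limma adjusted p = 0.114). From NPC to NC, Meis3 and Pbx3 rose further (log2 fold changes 1.36 and 1.15, limma adjusted p = 0.0163 and 0.0247) and 2 fell, Pbx2 among them (-0.86, 0.00662). In that step 15.2% of all genes tested rose and 10.1% fell. The median over the list was 3.45 for NPC against mESC and 0.46 for NC against NPC, beside 0.18 and 0.11 over all genes tested.

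Of 19 genes known to act upstream of Hox expression, 14 passed the filter, with 10 higher and 2 lower in NPC than in mESC. From NPC to NC 0 were higher and 8 lower (2 and 9 at an unadjusted limma p under 0.05). Of all genes tested 26.0% rose and 14.0% fell in the first comparison, and 15.2% and 10.1% in the second. The list's median was 2.18 and then -1.84, beside 0.18 and 0.11 over all genes tested. Rarb, a retinoic acid receptor that is itself induced by retinoic acid, stood at 0.594 and 0 TPM (mESC), 134 and 179 (NPC), then 19.5 and 25.3 (NC). Cyp26a1, which degrades retinoic acid, stood at 14.0 and 2.25 TPM (mESC), 519 and 443 (NPC), then 11.2 and 29.8 (NC) (log2 fold change -4.63 with an SE of 0.728, limma adjusted p = 0.00788 for NC against NPC). Both were highest in NPC, as Hoxb1 and Hoxd1 were. Rarg, the receptor most abundant in stem cells, fell to NPC (117 and 151 TPM (mESC), 14.4 and 19.8 (NPC), then 12.3 and 11.5 (NC)). The caudal factors Cdx1, Cdx2 and Cdx4, which drive the trunk Hox genes in the embryo, stayed at or under 2.55 TPM in each library, with Cdx2 at 0.990 and 1.67 TPM (mESC), 2.23 and 2.55 (NPC), then 0 and 0 (NC). Egr2, the activator of Hoxa2 and Hoxb2 in the hindbrain, did not exceed 0.875 TPM. Gdf11, a signal that promotes the 5′ genes in the trunk, stood at 1.59 and 1.69 TPM (mESC), 54.1 and 56.6 (NPC), then 70.4 and 115 (NC) (log2 fold change 4.42 with an SE of 0.250, limma adjusted p = 7.36e-05 for NPC against mESC). Nr6a1, a nuclear receptor of trunk development, stood at 26.7 and 21.0 TPM (mESC), 59.8 and 38.3 (NPC), then 8.73 and 15.1 (NC) and was lower in NC than in NPC (log2 fold change -1.97 with an SE of 0.320, limma adjusted p = 0.00863).

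**Figure D5:**
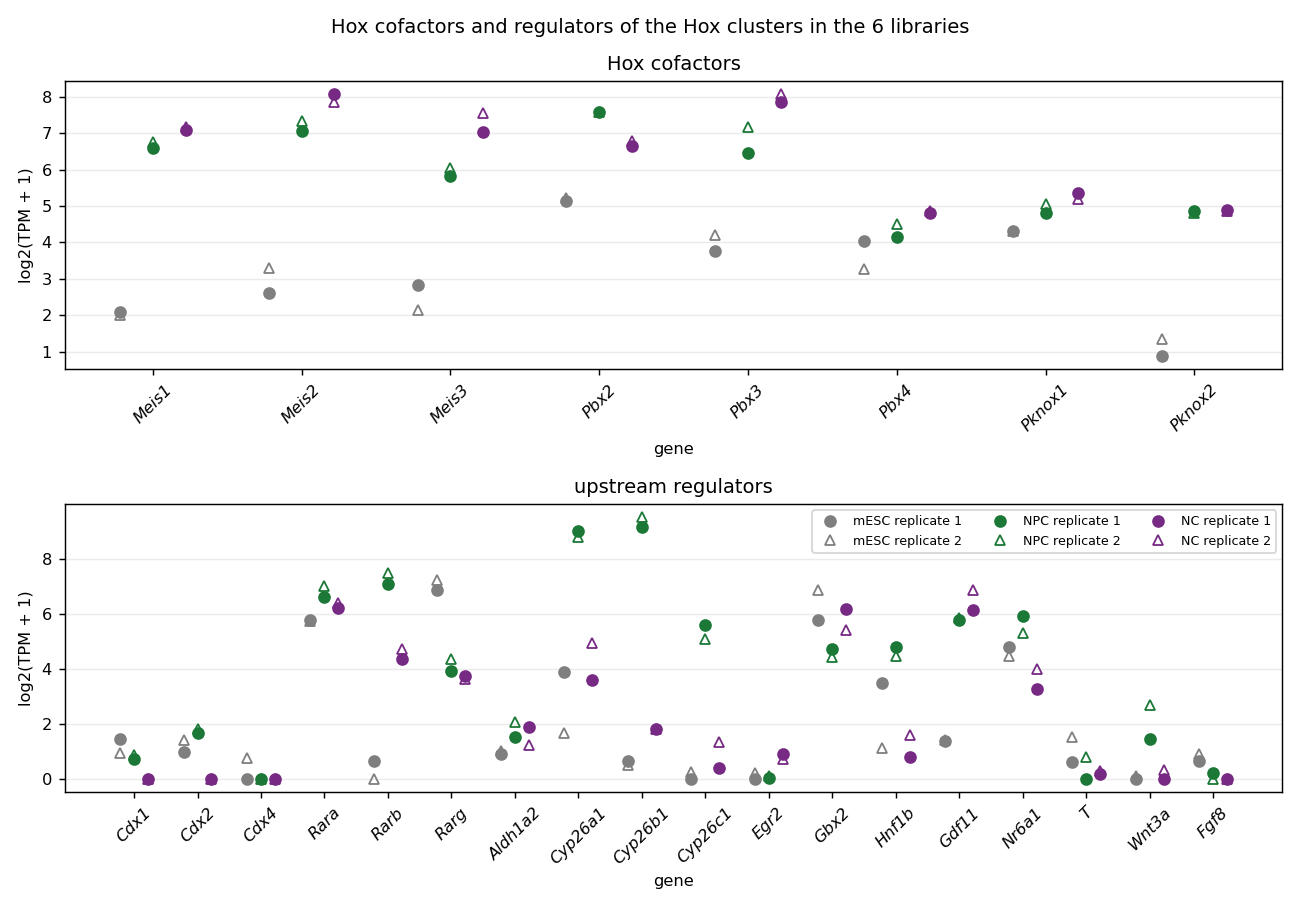
Level of Hox cofactor genes (top) and upstream regulators (bottom) as log2(TPM + 1) in the 6 libraries, with filled circles for replicate 1 and open triangles for replicate 2. The cofactors Meis1, Meis2, Meis3 and Pbx3 lie far above mESC in both later stages, while Cyp26a1, Cyp26b1, Cyp26c1 and Rarb are highest in NPC.

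Of 13 chromatin regulators of the clusters, 5 rose and 3 fell from mESC to NPC, where 26.0% of all genes tested rose and 14.0% fell. Those that fell were the Polycomb repressive complex 2 subunits Eed (log2 fold change -1.29, limma adjusted p = 0.00141) and Suz12 (-0.75, 0.00894) and Wdr5 (-1.0, 0.00237), a subunit of the Trithorax-type methyltransferase complexes. The enzyme of Polycomb repressive complex 2, Ezh2, did not pass (-0.11, 0.578). Kdm6b, which removes the Polycomb mark, rose (2.01, 0.000566), as did Bmi1 (1.95) and Cbx2 (1.80) of Polycomb repressive complex 1 and the Trithorax methyltransferase Kmt2a (0.83, 0.0399). The Kmt2a call was lost with median-of-ratios scaling, quantile normalization and FPKM, where 3, 4 and 3 genes of the list rose. The list's median of 0.22 was close to the 0.18 over all genes tested.

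Another list held genes of the forebrain and midbrain, the region in front of the Hox domain. Of 12 such genes 7 passed the filter, 3 rose (Lhx2, Emx2 and Dmbx1) and 3 fell (Otx2, En2 and Hesx1) from mESC to NPC. Over all genes tested 26.0% rose and 14.0% fell in that step. The summed level of the 12 genes was 45.6 and 42.3 TPM (mESC), 16.7 and 18.9 (NPC), then 21.3 and 14.5 (NC). Otx2, a factor of the forebrain, midbrain and epiblast, fell from 31.2 and 24.6 TPM to 1.58 and 0.770 (log2 fold change -3.74 with an SE of 0.316, limma adjusted p = 0.000304). Without Otx2 the other 11 genes summed to 14.5 and 17.8 TPM (mESC), 15.1 and 18.2 (NPC), then 20.7 and 14.3 (NC), so that the fall of the sum rested on that gene. Emx2 stood at 0.368 and 0.476 TPM (mESC), 3.99 and 4.73 (NPC), then 2.90 and 3.30 (NC). En1, which also marks a class of spinal interneurons, stood at 1.12 and 1.55 TPM (mESC), 1.60 and 0.916 (NPC), then 15.7 and 4.38 (NC) and rose from NPC to NC (log2 fold change 2.09 with an SE of 0.529, limma adjusted p = 0.0321). Of 5 genes of spinal and hindbrain neurons 4 passed the filter and rose from mESC to NPC, with Lhx3, a motor neuron and V2 interneuron factor, listed at 0 in mESC and at 3.43 and 1.96 TPM in NPC and 9.02 and 6.50 in NC. Their summed level stayed low beside the Hox genes, at 24.1 and 16.5 TPM in NPC and 14.4 and 19.3 in NC.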

How the data were processed

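The 6 libraries were made from mRNA selected on beads and cleared of rRNA, and were read on an Ion Proton, per the labels' protocols. Per the submitters' processing notes, which give no roles, the tools were STAR 2.7.9a, cutadapt 3.4, R 4.0.3, StringTie 2.1.5, DESeq2 and FastQC, with the mm10 build. Per the file headers the tables are StringTie gene abundances with 3 units. The deposited coverage is a mean read depth, the deposited FPKM values are scaled to length and library, and the deposited TPM values are FPKM rescaled to a common total. The annotation release and the strand setting, both not given in the sources used here, limit values of overlapping genes. Counts are absent from these files, so no counting interval can be given. Aligned bases come from the modal ratio of coverage to FPKM (tolerance 0.1%). Of genes with an FPKM of at least 1, only 38.3% to 39.7% per library lay at that ratio.

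Repeated lines of a gene ID (2 to 9 per table) were summed. Genes that reached 1 TPM in 2 or more of the 6 libraries were tested with limma 3.58.1 in R 4.3.3 (lmFit, eBayes with trend, log2(TPM + 1), 1 coefficient per group, 3 residual degrees of freedom), two-sided, with Benjamini-Hochberg adjustment over 20232 genes and a threshold of 0.05. Fold changes on this scale understate the change of low genes. The fit was tested on simulated data. The Hox genes and all lists were chosen with earlier results of these data known. Values in every library are given for the 22 genes with a stage mean of at least 10 TPM and for those near the filter, except that a few genes are not reported here or drawn, though counts and sums include them. Genes named from the other lists are examples chosen after their values were seen. Exon overlaps use GENCODE vM21, where all 39 Hox genes have the quantified start and end and 33 the same ID and version. Positions of the other genes of the clusters, and exon models, were not compared. Promoter and microRNA sequences are RefSeq's. Alternatives were other pseudocounts, filters, scalings, FPKM, no trend, a replicate block, 2-group fits, the first of repeated lines and leaving out each library.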

Additional observations from a re-analysis of the deposited data

How the results depend on the processing

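The Hox calls between mESC and the later stages held under most alternatives, and those between NPC and NC depended more on single libraries. Of the values of single Hox genes under an alternative, 1264 kept direction and side of the threshold, 63 lost a call, 22 gained one and 28 turned direction. With a filter of 5 TPM, 15.8% of all genes tested were called lower from mESC to NPC and 25.2% from mESC to NC. With that filter, which tests fewer low genes, the Hox genes that fell in these 2 comparisons numbered 1 each in place of 5. Leaving out 1 library gave 3 to 5 for the first. For NC against NPC the 8 that fell became 5 with a pseudocount of 0.1 and 4 with no filter, and the cause was not tested. Of all genes tested, 9.42% and 3.54% were called lower with these 2 settings, against 10.1% in the main fit. Of that comparison, Hoxa3, Hoxb1, Hoxb2 and Hoxb6 lost their calls under the settings given in the results above, and Hoxb6 also with the replicate block (limma adjusted p = 0.0614). Directions that turned were all of uncalled genes. For NC against NPC these were Hoxc13 (0.011 with a pseudocount of 0.1), Hoxc5 (-0.03 with quantile normalization and -0.081 with FPKM) and Hoxd3 (-0.014 with FPKM). For NC against mESC, Hoxd9 had -0.055 with a pseudocount of 0.1, -0.065 with median-of-ratios scaling, -0.46 with quantile normalization and -0.022 with FPKM. On leaving out 1 library, the NC against NPC values ran from -0.39 to 0.27 for Hoxc13, -0.014 to 1.25 for Hoxc6, -1.44 to 1.04 for Hoxc8, -1.14 to 0.69 for Hoxc9, -1.63 to 0.52 for Hoxa9, -1.10 to 1.02 for Hoxa7, -0.31 to 0.26 for Hoxc4, -3.24 to 0.23 for Hoxb9, -0.31 to 0.48 for Hoxc5, -1.41 to 0.05 for Hoxd8, -0.046 to 0.41 for Hoxa5 and -0.046 to 0.36 for Hoxd3. Those for NC against mESC ran from -0.26 to 0.31 for Hoxd9 and -0.26 to 1.57 for Hoxc9. Of Hoxb9, the value -3.24 without NC replicate 2 passed the threshold. Over all genes tested, the deviations of libraries with the same replicate number had correlations of 0.045, -0.082 and -0.07, and the labels do not say that a number marks a shared culture. Of the Hox genes, all 6 that were over 2-fold higher in NPC replicate 2 were so in NC replicate 2 as well. A replicate block gave 24 Hox genes that rose and 6 that fell for NPC against mESC. It gave 0 and 7 for NC against NPC, and 22 and 6 for NC against mESC. Of all genes tested, the block called 23.6% higher and 12.8% lower, then 12.5% and 8.46%, and 36.3% and 20.9%, in that order. Called with it for NPC against mESC but not without were Hoxa7 and Hoxc8, which rose, and Hoxa9, which fell (limma adjusted p = 0.00411, 0.0261 and 0.0279). Scaling alternatives for the gene lists were chosen after seeing the data. With no counts in the files, the depth behind low values such as those of the 5′ genes in mESC cannot be given as reads.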
